A study of Homo sapiens with 37 samples.

Results

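The genes for 9 proteins of the red cell membrane were followed across 37 bulk RNA-seq libraries of K562, a human erythroleukemia line that expresses erythroid genes. They are the minor glycophorins GYPB, GYPC and GYPE, the anion exchanger SLC4A1, the skeleton and anchoring proteins ANK1, EPB41 and EPB42, and the blood group carriers RHAG and KEL, and they were taken by the Ensembl identifier that maps to each symbol. All 9 had a row among the 32055 genes of the table. The study asked which genes differ when the transcription factor ZBTB7A is disrupted in these cells. The 26 KO libraries came from cells given Cas9 and 1 of 2 gRNAs against ZBTB7A, and the 11 control libraries from cells given the same plasmid without a gRNA. In both groups single GFP-positive cells were sorted and expanded, and the labels name no other treatment. Libraries are named here by their group and a number from 1 to 26 or 1 to 11, which only follows the order of the samples. The labels give no clone, gRNA or culture for any library, so several libraries may come from 1 clone and the p-values below measure only the spread between these libraries, which may be technical in part.

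The red cell membrane is held to a spectrin and actin skeleton at multiprotein anchoring points. At the first kind, band 3 (SLC4A1) and the Rh complex, which is built on RHAG, are tied to spectrin through ankyrin (ANK1) and protein 4.2 (EPB42). At the second kind, glycophorin C (GYPC) is tied to spectrin and actin by protein 4.1 (EPB41) together with p55 (MPP1), and the XK and Kell (KEL) proteins are carried there too. GYPB and GYPE are closely related copies that arose by gene duplication. During terminal erythroid maturation band 3 and protein 4.2 appear late, whereas glycophorins and RHAG are already expressed in precursors, and many of these genes are activated by GATA1 and KLF1.

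Positions are those of GENCODE on GRCh38. GYPE (chr4:143870864-143905563) and GYPB (chr4:143996104-144019380) stand next to each other on the minus strand of chromosome 4. The other members besides ANK1 are EPB41 at chr1:28887091-29120046 and GYPC at chr2:126656133-126696667, both on the plus strand, and RHAG at chr6:49605175-49636839, KEL at chr7:142941114-142962363, EPB42 at chr15:43197227-43221018 and SLC4A1 at chr17:44248390-44268141, all on the minus strand. The stretches printed next are 200 bases from the promoters of GYPB and GYPE, which show how alike these copies are, and of RHAG, the abundant member that differed between the groups. They were taken from RefSeq on GRCh38.p14 and run 5′ to 3′ on the strand of the gene. Capitals mark the letters of a GATA site, AGATAA in GYPB and GYPE and TTATCA, which is TGATAA on the other strand, in RHAG.
GYPB, chr4:144019375-144019574, minus strand: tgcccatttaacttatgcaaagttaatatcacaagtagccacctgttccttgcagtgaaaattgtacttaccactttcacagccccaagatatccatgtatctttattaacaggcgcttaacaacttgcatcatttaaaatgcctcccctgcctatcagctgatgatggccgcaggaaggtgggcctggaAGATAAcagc
GYPE, chr4:143905595-143905794, minus strand: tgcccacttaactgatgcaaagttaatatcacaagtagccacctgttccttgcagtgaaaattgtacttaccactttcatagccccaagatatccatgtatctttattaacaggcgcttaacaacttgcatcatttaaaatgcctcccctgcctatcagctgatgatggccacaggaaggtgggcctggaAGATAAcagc
RHAG, chr6:49636840-49637039, minus strand: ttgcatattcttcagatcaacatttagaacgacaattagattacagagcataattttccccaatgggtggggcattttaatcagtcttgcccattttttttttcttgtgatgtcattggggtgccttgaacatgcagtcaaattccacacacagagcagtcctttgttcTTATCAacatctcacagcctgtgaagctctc
The GYPB and GYPE stretches were identical at 196 of 200 bases and differed at 4. The promoters of 7 members were searched, as SLC4A1 had none in the RefSeq source used and ANK1 was left out of the search. Of these 7, 5 held AGATAA or TGATAA on either strand within the 250 bases before a start. They were EPB42, GYPB, GYPE, KEL and RHAG, against 14.6% of all 35116 promoters. The letters CCNCNCCC, the core of sites of the KLF family, were found in 5 of the 7 (EPB41, EPB42, GYPC, KEL and RHAG) against 53.4% of all promoters. The members are counted by gene, some with several promoters, whereas the shares are per promoter. GYPB and GYPE, as near-identical copies, are not separate cases of AGATAA. A match describes the letters only and shows no binding.

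In the libraries, each count is a number of captured molecules (UMIs) read near the 3′ end of transcripts, so it does not depend on transcript length. A KO library held between 1070250 and 4270901 UMIs (median 2030965), and a control library between 563235 and 4710809 (median 3518944). Each library carries a 6-base barcode, and barcodes rich in G and C (at least 4 of 6 bases) made up 12 of the 26 KO barcodes and 1 of the 11 control barcodes, so barcode composition is unequal between the groups. The targeted transcript ZBTB7A was at 5.94 ± 0.26 log2 CPM in KO (SD, n = 26) and 5.81 ± 0.29 in control libraries (SD, n = 11). A 3′ count does not read the edited site and thus does not check the labels. Erythroid markers were present in both groups, with 16 of 17 listed genes having a row and a summed level of 4530 to 9502 CPM in control and 3343 to 10340 CPM in KO libraries. Of the 15 tested, 5 were called higher in KO (ALAS2, EPOR, GFI1B, HEMGN and TAL1) and 4 lower (GATA1, KLF1, NFE2 and TFRC). That is 60% called, against 34.0% of all tested genes. GATA1 fell by 0.19 on the log2 scale (SE 0.070, edgeR, adjusted p = 0.0292) and KLF1 by 0.22 (SE 0.083, edgeR, adjusted p = 0.0373). The lymphoid markers (6 of 7 with a row) summed to 16.3 to 73.5 CPM in control and 1.38 to 30.0 CPM in KO libraries. The myeloid markers (8 of 10) summed to 84.1 to 114 CPM in control and 41.4 to 100 CPM in KO libraries. Of these, 1 lymphoid marker was tested and was called lower in KO. Among the 2 myeloid markers tested, 1 was called higher and 1 lower. The megakaryocyte markers (9 of 12) summed to 6.02 to 20.9 CPM in control and 13.2 to 93.7 CPM in KO libraries. Of these, 2 passed the filter on low counts, GP1BA and THBS1, and both were called higher in KO libraries. GP1BA reached at most 2.15 CPM and the higher myeloid marker at most 3.05 CPM in control libraries. Both lie below the 4.39 CPM that the filter uses, so both were tested only through KO libraries. Their direction was thus largely set by the filter. Each marker with a row was counted in at least 1 library. The part that these shifts have in the values below was not tested.

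Levels are given as CPM, UMI counts brought to a common library total with TMM scaling, or as log2 CPM with 2 counts added to each library of average size. In the control libraries RHAG was the most abundant member at 8.78 ± 0.23 log2 CPM (SD, n = 11), followed by GYPC at 7.71 ± 0.19. ANK1 at 7.31 ± 0.14 and GYPB at 7.12 ± 0.36 came next and did not differ beyond their spread. GYPE followed at 5.05 ± 0.35 and EPB41 at 4.22 ± 0.50. EPB42 at 1.74 ± 0.21, SLC4A1 at 1.59 ± 1.05 and KEL at 0.78 ± 0.83 were close to the limit of detection and were not separated from each other by their spread. The order was the same among KO libraries for the 6 abundant members, while SLC4A1 there reached 3.02 ± 1.71 (SD, n = 26).

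**Figure D1:**
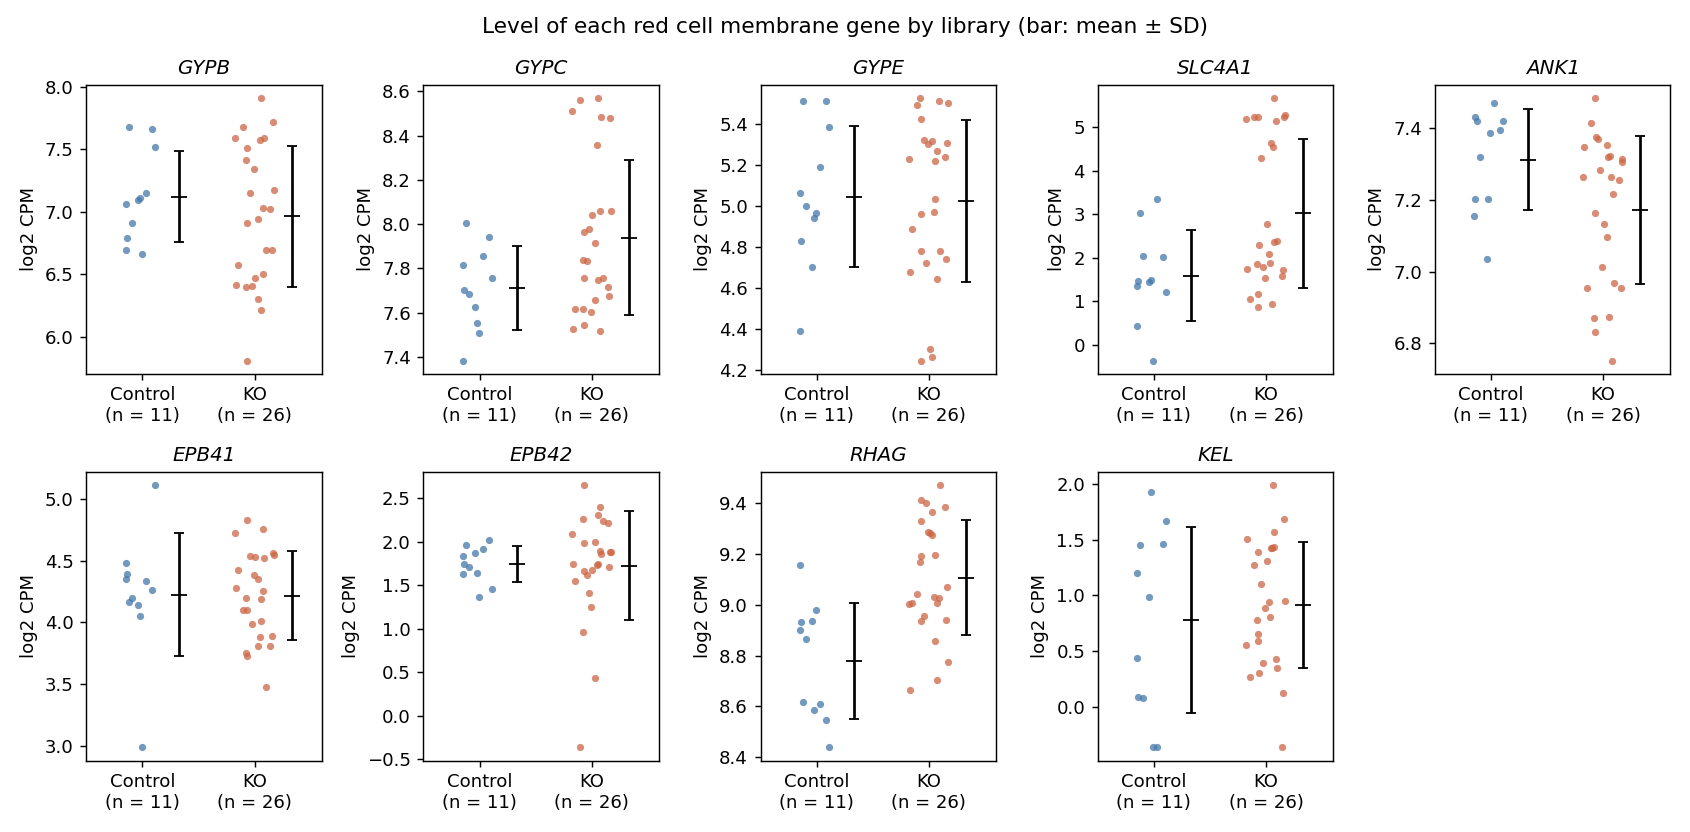
Level of each of the 9 genes in every library (y axis, log2 CPM), with control libraries (n = 11) in blue and KO libraries (n = 26) in red, 1 point per library and a bar for the mean ± SD. SLC4A1 in KO libraries is split by an empty interval between 2.77 and 4.29, RHAG is shifted upward, and the remaining genes overlap widely between the groups.

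Of the 9 genes, 7 passed the filter on low counts, and 2 of these, SLC4A1 and RHAG, passed the edgeR quasi-likelihood test at an adjusted p below 0.05, both higher in KO libraries. That is 28.6% of the members tested, against 34.0% of the 10661 genes tested across the transcriptome and 17.5% called higher in KO, so the share among the members was near the background. Their median log2 fold change was -0.030, and that of all tested genes was -0.0061. SLC4A1 was the single member called with a change above 0.5 on the log2 scale, and 10.2% of all tested genes passed both limits. SLC4A1 passed the filter through KO libraries, so the filter favoured a rise of this gene. No member had KO and control libraries without overlap, which 0.281% of all tested genes had.

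SLC4A1 encodes band 3, the chloride and bicarbonate exchanger that is the most abundant integral protein of mature red cells. It was counted at 0 to 22 UMIs with a median of 7 per control library and at 3 to 78 UMIs with a median of 9.5 per KO library. On the log2 CPM scale the control libraries ran from -0.37 over a median of 1.47 to 3.36, and the KO libraries from 0.88 over a median of 2.33 to 5.66. In 10 KO libraries SLC4A1 stood above every control library, and in the other 16 it lay inside the control range. The shallowest control library, control 7, had 0 UMIs, which allows a level of up to 5.38 CPM by counting error alone. The mean level was 3.03 CPM in control and 14.6 CPM in KO libraries. The fitted log2 fold change was 2.07 with a standard error of 0.66 and a 95% interval of 0.73 to 3.41, a 4.20-fold higher level in KO (edgeR, adjusted p = 0.0146). The call rests on libraries that are far apart from each other. It was lost with limma-voom, which averages log values and gave 1.07 (adjusted p = 0.208), and among AT-rich barcodes alone, which gave 1.88 (edgeR, adjusted p = 0.0865). SLC4A1 passed the filter through KO libraries, since 13 of them but 2 control libraries were at or above the level of 4.39 CPM that the filter uses. The filter thus favoured a rise of SLC4A1 over a fall. In the fit without a filter the difference was 2.03 (edgeR, adjusted p = 0.0391).

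The KO libraries above the control range for SLC4A1 were KO 8 with 78 UMIs, KO 5 with 76, KO 11 with 65, KO 4 with 60, KO 10 with 51, KO 24 with 45, KO 20 with 41, KO 12 with 40, KO 25 with 38 and KO 22 with 35. The lowest of them in level, KO 20 at 4.29 log2 CPM, was 1.51 above the next KO library, KO 1 at 2.77 with 25 UMIs. These were not the deeper libraries, as the 10 held 1070250 to 2164774 UMIs in total and the other 16 held 1348241 to 4270901. When every library was thinned to 563235 UMIs, the 10 libraries kept 7 to 27 UMIs of SLC4A1, the other KO libraries 0 to 4 and the control libraries 0 to 3. Of the 10 barcodes, 5 were AT-rich and 4 GC-rich, so both kinds were present. Whether the libraries belong to 1 clone or several is not given by the labels.

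Among the 8556 tested genes with a symbol and a mean of at least 10 CPM, the genes whose log2 CPM ran most like SLC4A1 over the 26 KO libraries were FAM210B (r = 0.923, Spearman's rho 0.795), HBA2 (r = 0.922, rho 0.765) and HBZ (r = 0.918, rho 0.806). HBA2 and HBZ encode alpha-type globin chains. The points are split by the gap, and each side was taken alone. Within the 16 KO libraries below the gap r was 0.323, 0.123 and 0.318 for these genes, and within the 10 above it 0.387, 0.068 and 0.422.

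RHAG encodes the Rh-associated glycoprotein, an ammonia and gas channel that is required for the Rh antigens to reach the surface. It was the most abundant member, with 281 to 2030 UMIs in control (median 1587) and 532 to 2571 in KO libraries (median 1150.5). In level the control libraries ran from 8.44 over a median of 8.87 to 9.16 log2 CPM, and the KO libraries from 8.67 over a median of 9.06 to 9.47. Hence the groups overlapped, but in 12 of the 26 KO libraries RHAG exceeded the highest control, control 5, and in none was it below the lowest. Controls themselves were spread, with control 3, control 9, control 6, control 4 and control 8 between 8.44 and 8.62 and the other 6 between 8.87 and 9.16. RHAG rose by 0.34 on the log2 scale in KO libraries (SE 0.079, 95% interval 0.18 to 0.49), a 1.26-fold difference (edgeR, adjusted p = 0.00105). The lowest KO library for RHAG was KO 18 at 8.67. Of the 12 KO libraries above all controls for RHAG, 1 (KO 22) was among the 10 that were high for SLC4A1. The libraries with the highest RHAG were thus mostly not those high for SLC4A1. Those 10 still ran from 8.705 (KO 8) to 9.195 (KO 22) for RHAG, most of them above the control median of 8.87.

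**Figure D2:**
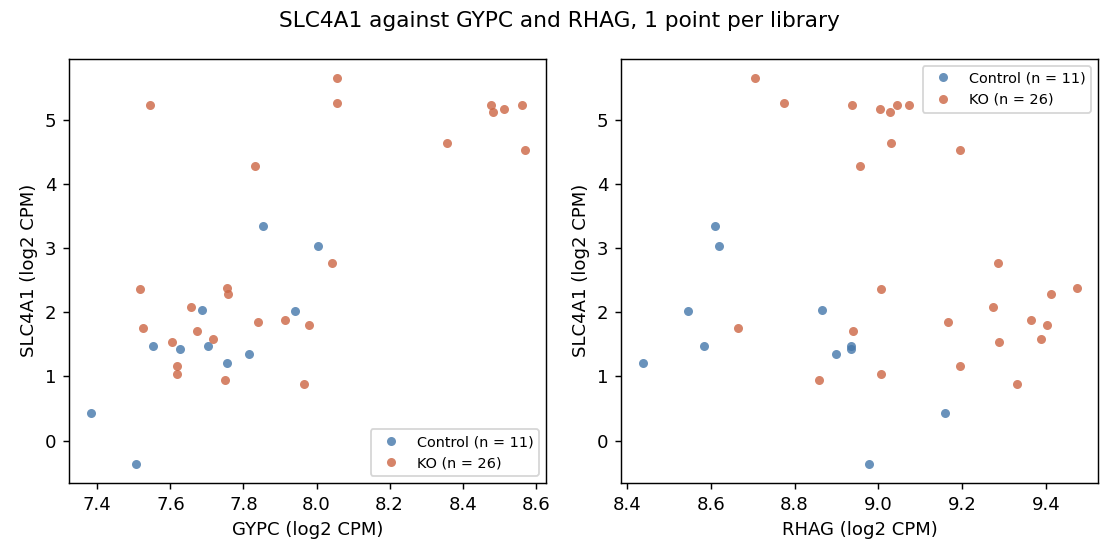
SLC4A1 level (y axis, log2 CPM) against the level of GYPC and RHAG (x axes, log2 CPM), 1 point per library, with control libraries (n = 11) in blue and KO libraries (n = 26) in red. Of the 10 KO libraries above 4 on the y axis, 6 hold the highest GYPC values and 1 lies above the control range for RHAG.

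Glycophorin C, which carries the Gerbich blood group and holds protein 4.1 at the membrane, was counted at 101 to 1118 UMIs per control and 202 to 1084 per KO library, with medians of 727 and 520. The control libraries ran from 7.38 over a median of 7.70 to 8.004 log2 CPM and the KO libraries from 7.52 over 7.84 to 8.57. Above the highest control library lay 9 KO libraries, and none lay below the lowest. Of these 9, 8 were among the libraries high for SLC4A1, and the ninth was KO 1. The 6 highest, KO 4, KO 5, KO 10, KO 22, KO 24 and KO 25, stood at 8.36 to 8.57, above an interval of 0.30 without any library. The SLC4A1-high libraries KO 12 at 7.54 and KO 20 at 7.83 were not raised for GYPC. The difference between groups was 0.25 (SE 0.11, 95% interval 0.022 to 0.47) and did not pass the test (edgeR, adjusted p = 0.0827). It passed when barcode composition was a covariate, at 0.35 (edgeR, adjusted p = 0.0116), among AT-rich barcodes alone, at 0.40 (adjusted p = 0.0246), and with scaling by library size alone, at 0.28 (adjusted p = 0.0449).

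GYPB carries the S and s antigens, and GYPE is a glycophorin gene whose protein has not been well characterised on red cells. GYPB was counted at 56 to 918 UMIs per control and 122 to 721 per KO library. Its level ran from 6.66 over a median of 7.09 to 7.68 log2 CPM in control and from 5.81 over 6.98 to 7.91 in KO libraries. KO libraries thus lay on both sides of the controls, 3 above the highest (KO 5, KO 22 and KO 24) and 9 below the lowest (KO 1, KO 2, KO 3, KO 7, KO 9, KO 13, KO 18, KO 19 and KO 21). The 3 high ones were all among the SLC4A1-high libraries, and none of the 9 low ones was. The difference was -0.13 (SE 0.18, 95% interval -0.49 to 0.23) and was not detectable (edgeR, adjusted p = 0.624). GYPE was counted at 17 to 205 UMIs per control and 29 to 193 per KO library. It ran from 4.39 over a median of 4.998 to 5.52 log2 CPM in control and from 4.24 over 5.13 to 5.53 in KO libraries. Nearly all KO libraries lay inside the control range for GYPE, apart from KO 1, KO 3 and KO 13 below it and KO 4 and KO 6 just above it. Its difference was -0.030 (95% interval -0.29 to 0.23, edgeR, adjusted p = 0.896).

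Since GYPB and GYPE are copies, reads may be shared between them. Of the 50-base windows in the last bases of the GYPB transcript, 4.27% (22 of 515) occur without mismatch in a GYPE transcript. With a further glycophorin gene included, 26.8% (138 of 515) of the GYPB windows occur in another gene. None of the windows in the last 600 bases of GYPE occur in GYPB. The sources used here do not say how reads with several matches were treated, so the level of GYPB is less certain than that of GYPE.

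The anchoring proteins differed little between the groups. Ankyrin, ANK1 (chr8:41653220-41896741, minus strand), was counted at 93 to 783 UMIs per control and 146 to 576 per KO library. It ran from 7.04 over a median of 7.39 to 7.47 log2 CPM in control and from 6.75 over 7.26 to 7.49 in KO libraries. In 8 KO libraries (KO 6, KO 7, KO 9, KO 16, KO 17, KO 19, KO 21 and KO 23) it lay below every control, and none of these was high for SLC4A1. The difference of -0.13 (SE 0.065, 95% interval -0.27 to -0.0026) did not pass the test (edgeR, adjusted p = 0.107). EPB41, protein 4.1, was counted at 4 to 155 UMIs per control and 20 to 92 per KO library. It ran from 2.99 over a median of 4.26 to 5.11 log2 CPM in control and from 3.48 over 4.23 to 4.83 in KO libraries. Every KO library lay inside the control range for EPB41, and the difference was -0.11 (SE 0.13, 95% interval -0.37 to 0.14, edgeR, adjusted p = 0.518). The ends of that range were single libraries, control 7 at 2.99, the shallowest library with 4 UMIs, and control 3 at 5.11. The other controls lay between 4.05 and 4.48, and KO libraries lay both below and above that span.

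EPB42 and KEL were too low for the filter. EPB42, protein 4.2, which joins band 3 to ankyrin, was counted at 1 to 15 UMIs per control (median 9) and 0 to 11 per KO library (median 6), or 2.598 and 2.775 CPM on average. KEL, the Kell glycoprotein, an endopeptidase of the cell surface, was counted at 0 to 11 UMIs per control (median 5) and 0 to 7 per KO library (median 2.5), or 1.20 and 1.25 CPM on average. Counting alone, without the 2 added counts, gives an SD of 0.69 on the log2 scale for EPB42 and 1.04 for KEL in KO libraries. The SDs seen, 0.63 and 0.57, are of levels with the added counts, which narrow the spread at such low counts. These SDs therefore cannot show how much of the spread is counting error. In the test of all 32055 genes without a filter the differences were 0.013 for EPB42 (95% interval -0.43 to 0.46, edgeR, adjusted p = 0.9751) and -0.21 for KEL (-0.86 to 0.44, adjusted p = 0.734). EPB42 thus showed no high libraries like those of SLC4A1, and of the 7 KO libraries above the control range for EPB42, 3 were in that set.

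The spread among KO libraries was larger than among controls for GYPB (SD 0.56 against 0.36), GYPC (0.35 against 0.19) and SLC4A1 (1.71 against 1.05), but none of the 7 members tested passed the two-sided permutation test of the spread after adjustment (adjusted p = 0.182 for each of these 3), and 1 of 7, GYPB, had an unadjusted p below 0.05 (p = 0.0426). Counting alone gives an SD of 0.092 for GYPB and 0.065 for GYPC in KO libraries, so most of their spread is not counting error. EPB41 went the other way, with an SD of 0.36 in KO and 0.50 in control libraries (permutation test, adjusted p = 0.943). Its control SD includes the outlying control 7 at 2.99 log2 CPM, with 4 UMIs, and control 3 at 5.11. For RHAG the SDs were equal at 0.23 in both groups, against 0.044 to 0.046 from counting.

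Pairs of members were compared within the KO libraries. With GATA1 and 1 further gene added, 51 relations were computed, and 8 passed a two-sided permutation test at a Benjamini-Hochberg adjusted p below 0.05. Pairs with SLC4A1 were taken within each side of the gap that splits its values, and none of them passed by the same permutation test. Of the 21 pairs taken over all 26 KO libraries, 5 passed. The closest was GYPB with GYPE, at r = 0.79 (adjusted p = 0.00051) and rho = 0.75 (adjusted p = 0.00051), with unadjusted values of 1e-05, the smallest that 100000 resamples can give. Without the 2 libraries farthest from the median r was 0.77, and in the 11 control libraries it was 0.85. GYPB with GYPC gave r = 0.69 (adjusted p = 0.00255 by permutation) and rho = 0.62 (adjusted p = 0.0190), with r = 0.68 without the 2 farthest libraries. GYPC with the erythroid transcription factor gene GATA1 gave r = 0.69 (adjusted p = 0.00255 by permutation) and rho = 0.70 (adjusted p = 0.00332), and r = 0.62 without the 2 farthest. Thus libraries with more glycophorin B also had more of the glycophorins E and C.

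ANK1 and GATA1 were related as well, with r = 0.56 (adjusted p = 0.0387 by permutation), rho = 0.55 (adjusted p = 0.0392) and r = 0.52 without the 2 farthest libraries. EPB41 ran against RHAG, with r = -0.55 (adjusted p = 0.0387 by permutation), rho = -0.56 (adjusted p = 0.0392) and r = -0.47 without the 2 farthest. Libraries of 1 clone would not be independent points, which the labels do not allow to be checked.

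The genes closest to each other member over the 26 KO libraries were named by the same measure as for SLC4A1. For GYPB these were PLAGL2 (r = 0.867), TF (0.854), which encodes transferrin, and EXOC2 (0.844). For GYPC they were FLOT2 (0.924), which encodes the raft protein flotillin-2, ASRGL1 (0.924) and CDC42EP4 (0.921). For GYPE, GYPB was the nearest (0.793), and TF (0.739) was again among the 3. For ANK1 they were DNPEP (0.830), ARPC2 (0.799) and PSMD1 (0.793), and for EPB41 APC (0.768), GRAP2 (0.768) and F11R (0.761). For RHAG they were HMGN3 (0.852), PNRC1 (0.834) and UBE2N (0.829), none of which is a membrane gene of the lists used here. These values hold for KO libraries only. In the 11 control libraries r was negative for UBE2N with RHAG (-0.557), FLOT2 with GYPC (-0.173) and ARPC2 with ANK1 (-0.118). For the other genes named in this paragraph it was positive, from 0.194 for PSMD1 with ANK1 to 0.85 for GYPB with GYPE.

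The remaining proteins of the skeleton were compared in the same fit. Of 11 skeleton partners, all tested, 3 rose and 5 fell in KO libraries, or 72.7% called against 34.0% of all genes, and their median log2 fold change was -0.16. The rises included those of TMOD1, which caps the slow end of actin filaments, at 0.44 (SE 0.094, edgeR, adjusted p = 0.000315), and ADD3, gamma adducin, at 0.38 (SE 0.074, adjusted p = 9.45e-05). The largest falls were of ADD2, beta adducin, at -0.90 (SE 0.12, edgeR, adjusted p = 4.22e-07), MPP1, which encodes p55, at -0.78 (SE 0.13, adjusted p = 1.07e-05), and SPTB, the beta spectrin of red cells, at -0.54 (SE 0.13, adjusted p = 0.000963). ADD1 and TPM3 fell as well. The fall of ADD2 was seen in 25 of 26 KO libraries, which lay below the lowest control. MPP1 did so in 20 of 26. Thus gamma and beta adducin changed in opposite directions, while the membrane anchors ANK1 and EPB41 did not pass the test. After thinning, 4 of these calls were lost, with ADD1 moving from -0.31 to -0.14 (edgeR, adjusted p = 0.222) and TMOD1 to 0.30 (adjusted p = 0.09996), while SPTB at -0.46 (adjusted p = 0.0574) and TPM3 at -0.18 against -0.16 (adjusted p = 0.0513) stayed about as large. TPM3 was not called among AT-rich barcodes either, at -0.12 (edgeR, adjusted p = 0.108).

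Of 26 other blood group and membrane proteins, 23 had a row and 18 were tested, and 6 of these rose and none fell by the edgeR test at an adjusted p below 0.05. That is 33.3% called, close to the 34.0% of all tested genes, while 17.5% of all genes were called higher and 16.5% lower. The median log2 fold change of the list was 0.28. ICAM4, XK and AQP1 were not analysed here. The largest rises were of the Rh antigen genes RHCE and RHD, which form the Rh complex with RHAG. RHCE (chr1:25362249-25430192) was counted at 10 to 152 UMIs per control and 25 to 336 per KO library. Its level ran from 3.51 to 5.35 log2 CPM in control (mean 4.38 ± 0.68 SD, n = 11) and from 3.97 to 7.49 in KO libraries (5.58 ± 1.21 SD, n = 26), and 14 KO libraries lay above every control. Controls 3, 4, 6, 8 and 9, the low ones for RHAG, were the high ones for RHCE at 4.55 to 5.35. The other controls lay between 3.51 and 4.225, and the fold change is taken over both sets of controls. RHCE rose by 1.53 on the log2 scale (SE 0.44, 95% interval 0.64 to 2.41, edgeR, adjusted p = 0.00663).

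RHD (chr1:25272393-25330445) was counted at 2 to 79 UMIs per control and 16 to 160 per KO library. Its level ran from 2.12 to 4.62 log2 CPM in control (3.40 ± 0.87 SD, n = 11) and from 3.57 to 6.48 in KO libraries (4.86 ± 0.9955 SD, n = 26), and 14 KO libraries lay above every control. These 14 were the same libraries as for RHCE, and they included all 10 that were high for SLC4A1. Controls 3, 4, 6, 8 and 9 were again the high ones, at 3.57 to 4.62 for RHD, and the other controls lay between 2.12 and 3.13. RHD rose by 1.51 (SE 0.38, 95% interval 0.74 to 2.28, edgeR, adjusted p = 0.00227). RHAG, by contrast, exceeded all controls in 5 of these 14 libraries. In the RHCE transcript 25.6% of the 50-base windows in its last 600 bases also occur in RHD, and none of those of RHD occur in RHCE, so part of the RHCE count could stem from RHD reads.

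**Figure D3:**
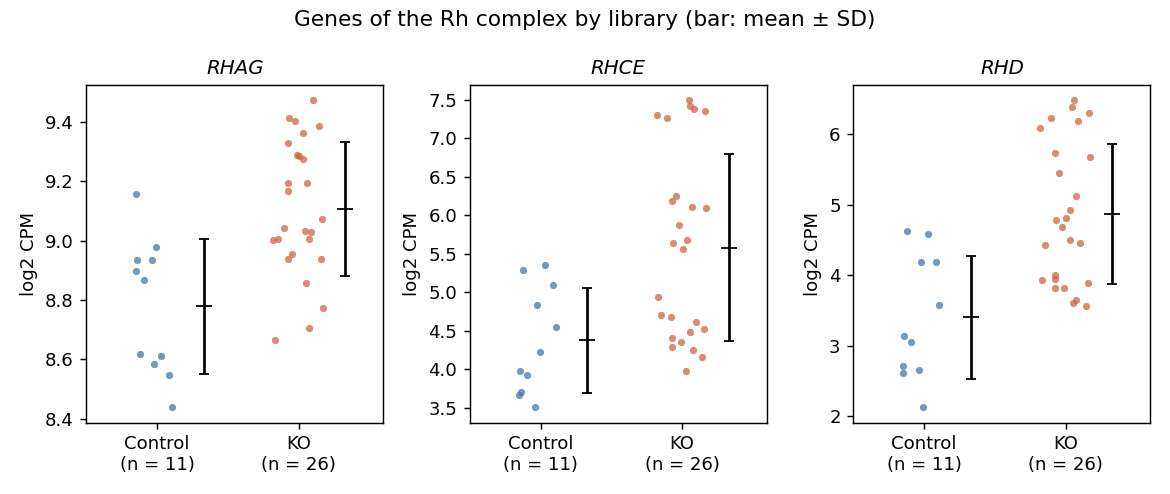
Level of the Rh complex genes RHAG, RHCE and RHD in every library (y axes, log2 CPM, on a separate scale for each gene), with control libraries (n = 11) in blue, KO libraries (n = 26) in red and bars for the mean ± SD. The KO means lie at 9.11, 5.58 and 4.86 against 8.78, 4.38 and 3.40 in control libraries, and 12, 14 and 14 KO libraries lie above all controls.

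ART4, the carrier of the Dombrock antigens, rose by 1.01 (SE 0.35, edgeR, adjusted p = 0.0222). It had 0 to 16 UMIs in control and 0 to 20 in KO libraries, too few for single libraries to be read. Its level was at most 3.51 CPM in control libraries, below the 4.39 CPM that the filter uses. ART4 was thus tested only through KO libraries, and its place among the genes that rose was largely set by the filter. In the fits that left out 1 library it was tested in 26 of 37. The other genes of this list that rose were ERMAP, which carries the Scianna antigens, at 0.77, STOM, the lipid raft protein stomatin, at 0.76, and ABCB6, the carrier of the Lan antigen, at 0.39 on the log2 scale. ART4 was not called with limma-voom or without the filter, and ABCB6 was called in neither of these, nor among AT-rich barcodes or after thinning, and stayed called in 31 of the 37 fits that left out 1 library. CD47, a further protein of the Rh complex, was at -0.12 (SE 0.062, edgeR, adjusted p = 0.138).

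**Figure D4:**
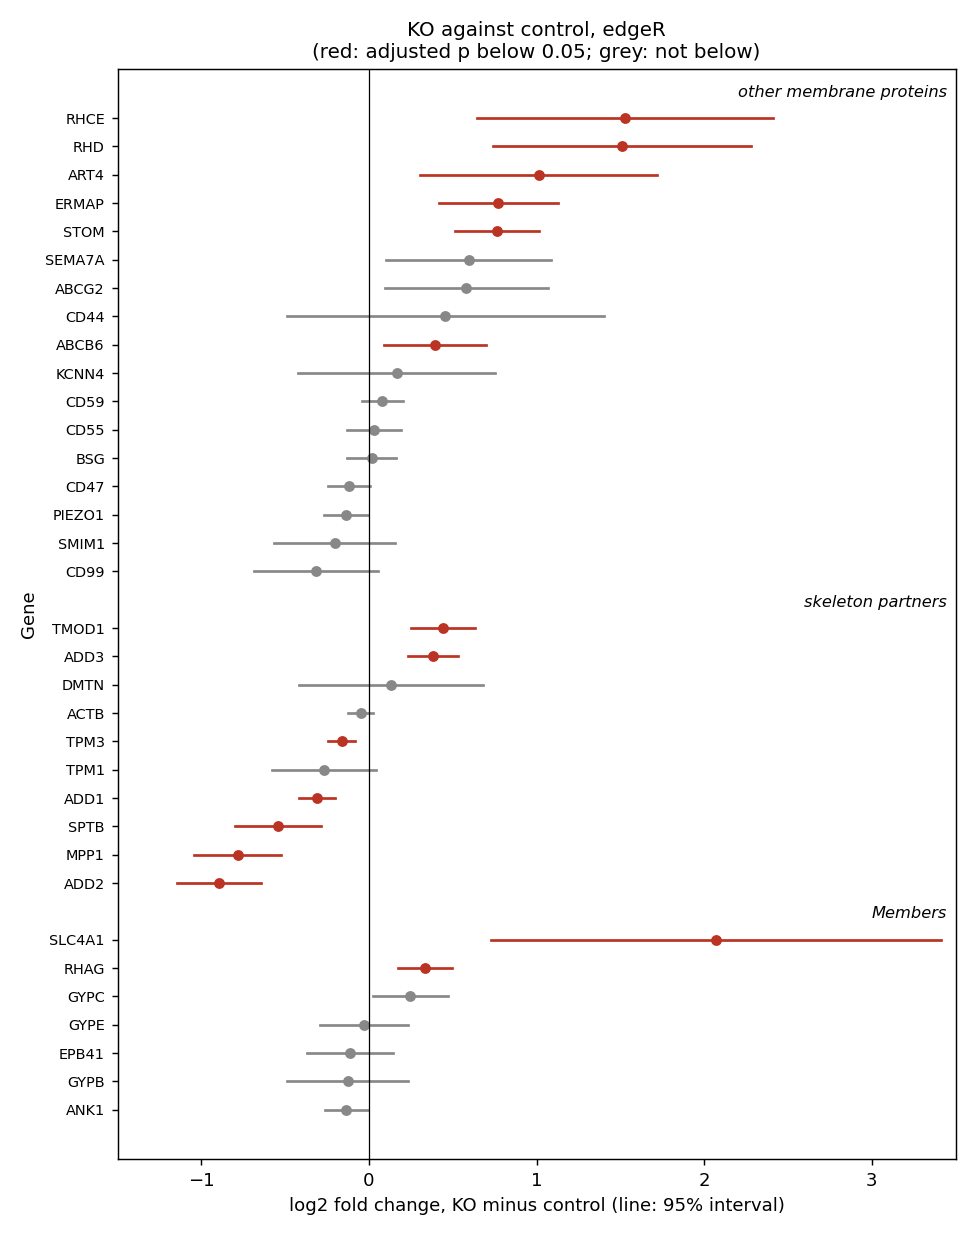
Log2 fold change of KO against control libraries (x axis) with its 95% interval for the 7 tested members, 10 skeleton partners and 17 other membrane proteins (y axis), from edgeR, in red where the adjusted p was below 0.05 and in grey where it was not. SLC4A1 at 2.07 has the widest interval, the skeleton partners fall on both sides of 0, and RHCE and RHD stand at 1.53 and 1.51.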

How the data were processed

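Bulk SCRB-seq libraries of K562, 26 KO and 11 control, were compared. The authors mapped reads with STAR 2.6.0a (version per the labels) to hg38 and counted UMIs with zUMIs on Ensembl GRCh38.84 genes, and the deposited values are raw UMI counts for 32055 Ensembl identifiers, of which GENCODE release 44 on GRCh38 paired 31323 with a symbol. The sources used here name neither a read length nor a rule for reads with several matches. Samples were matched to columns by barcode, and groups were taken from the labels. No pair of libraries of 1 group agreed within sampling noise (380 pairs, lowest chi-square per degree of freedom 1.14), so all were kept.

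Counts were filtered by expression (10661 genes tested) and fitted with group as the only term in edgeR 4.0.16 (TMM, robust quasi-likelihood, Benjamini-Hochberg adjustment) in R 4.3.3, tested on simulated data first. The threshold was an adjusted p of 0.05. Permutation tests were two-sided with 100000 resamples. Totals of 563235 to 4710809 UMIs per library set the precision, and floors cover counting error only. The members and gene lists were chosen with earlier results of these data known. The text names all 9 members, the list genes called with the 3 largest rises and falls, and the 3 genes most correlated with each member. The smaller rises and falls of ERMAP, STOM, ABCB6, ADD1 and TPM3, and CD47, ZBTB7A and the called erythroid and megakaryocyte markers, were named after their values were seen. The called lymphoid and myeloid markers are given as counts. A few genes that the lists hold and count are not reported here by name. Pairs with SLC4A1 were planned over all KO libraries and are given within each side of a gap of at least 0.5 log2 CPM, a choice made after seeing the data. Alternatives were limma-voom (limma 3.58.1, the package the study names), DESeq2 1.42.0, other scalings, filters, prior counts and thresholds, barcode composition as a covariate or AT-rich barcodes alone, thinning to the smallest total, and leaving out libraries.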

Additional observations from a re-analysis of the deposited data

How the results depend on the processing

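RHAG was called in all 11 alternative fits, at 0.33 to 0.37 on the log2 scale, and when each library was left out (0.30 to 0.38). Of the members, 1 was called in place of 2 with limma-voom, with thinning, at an adjusted p below 0.01 and at a change above 0.5. SLC4A1 was below the filter after thinning, and remained called when each library was left out (1.92 to 2.35), where the count of called members stayed at 2. The related lists held 19 called genes and 10 after thinning, and 16 to 21 when each library was left out, while thinning lowered the calls over all genes from 3623 to 1595. The correlations that passed fell from 8 to 2 among AT-rich barcodes, 3 after thinning and 4 without the 2 farthest libraries. Signs reversed for members with no call: GYPB was at 0.014 with the barcode covariate and 0.077 among AT-rich barcodes, GYPE at 0.0074 with library size alone and 0.031 with the covariate, and EPB41 at 0.15 after thinning, where the difference in its SD became 0.049. With each library left out GYPE ran from -0.071 to 0.036 and EPB41 from -0.15 to 0.012. The cause of these changes was not tested.

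No paired analysis was possible because the labels give the libraries no replicate number, clone or batch. Single-digit UMI counts limit EPB42, KEL, ART4 and the low SLC4A1 libraries.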

Other observations

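Of 18 paralogs of these genes that act mainly outside red cells, 12 were tested, and 2 rose and 3 fell in KO libraries, or 41.7% called against 34.0% of all tested genes, with a median log2 fold change of 0.049. EPB41L5, a protein 4.1 relative of epithelial cells, rose by 0.57 (SE 0.078, edgeR, adjusted p = 2.67e-07) and lay above every control in 25 of 26 KO libraries, while EPB41 itself did not pass the test. EPB41L1, the neuronal protein 4.1, rose by 0.88 (SE 0.30, edgeR, adjusted p = 0.0213) at 1 to 30 UMIs per control and 4 to 34 per KO library. Its median was 2.57 CPM in control and 6.36 CPM in KO libraries, against the 4.39 CPM that the filter uses. EPB41L1 thus passed the filter through KO libraries, and its place among the genes that rose was largely set by the filter. The falls included those of TGM2, the tissue transglutaminase related in sequence to EPB42, at -0.52 (SE 0.20, edgeR, adjusted p = 0.0382), and SLC4A2, the widely expressed anion exchanger related to SLC4A1, at -0.33 (SE 0.12, adjusted p = 0.0349). EPB41L1 was not called with limma-voom, without the filter or among AT-rich barcodes. SLC4A2 and TGM2 were not called with library size alone, without the filter, with the barcode covariate or among AT-rich barcodes, TGM2 in addition not without the shallowest library or after thinning, and they stayed called in 30 and 22 of the 37 fits that left out 1 library.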
